A study of Mus musculus with 12 samples.

Results

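The genes Slc45a3, Msln, Ghrh and Sprr1a, best known from prostate, mesothelium, hypothalamus and epidermis, were followed across 12 RNA-seq libraries of 3T3-L1 adipocytes. 3T3-L1 is a mouse fibroblast-like line that turns into fat cells in culture. The genes were picked by name because their RNA differed widely between groups, so their own differences between groups are given as values, without a test. They are 4 of the 28948 genes listed, and all 4 were among the 11245 genes that reached 1 RPKM in 3 or more libraries, over which tests of other genes were run. RPKM is a read count scaled to exon length and library depth.

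The libraries formed 4 groups of 3: cells overexpressing the forkhead transcription factor Foxp1, cells carrying an empty vector, cells in which a hairpin RNA targets Foxp1 (knockdown), and cells with a scrambled hairpin. Overexpression is set against the empty vector and knockdown against the scrambled hairpin, and the scrambled hairpin is also set against the empty vector to show how far the control groups differ. All groups were differentiated with dexamethasone (1 µM), isobutylmethylxanthine (0.5 mM), insulin (5 µg/ml) and troglitazone (10 µM), then held in insulin alone starting on day 4 and in plain medium starting on day 6. The day of harvest is not given in the sources used here, and neither are the species of the construct, the number of hairpins or what separates replicates, so p-values measure the spread between these libraries, which may be technical. All cells come from 1 line, and the labels describe no cells of another type. Libraries held 35252018 to 38450001 assigned reads, and replicates correlated at 0.9972 or more. Overexpression replicate 3 stood apart in its mitochondrial share of reads, at 13.11% beside 9.99% and 9.65% in the other overexpression libraries. Foxp1 followed the labels, at 5.78, 7.16 and 6.75 RPKM in overexpressing cells against 1.83, 1.76 and 1.82 RPKM with the empty vector, and at 1.11, 1.14 and 1.08 RPKM in knockdown cells against 2.24, 2.20 and 2.11 RPKM with the scrambled hairpin.

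Slc45a3 encodes prostein, a membrane protein of the SLC45 family of proton-coupled sugar transporters, and is widely used as a marker of prostate epithelium. Msln encodes mesothelin, a lipid-anchored glycoprotein on the surface of mesothelial cells that binds the mucin MUC16. Ghrh encodes growth hormone-releasing hormone, a peptide that hypothalamic neurons release to act on the receptor Ghrhr in the pituitary. Sprr1a encodes a small proline-rich precursor of the cornified envelope, which transglutaminases crosslink in the upper epidermis, and it is also known as a gene that injured neurons switch on.

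The 4 genes had different patterns over the groups. Slc45a3 and Msln were more than 10 times higher in overexpressing cells than in empty vector cells. Sprr1a was 10.4 times lower with overexpression and 5.60 times higher with knockdown. Ghrh differed most between the control groups, where it was 17.0 times higher with the scrambled hairpin than with the empty vector. In bulk RNA, fewer cells that express a gene and less of its RNA per cell cannot be told apart.

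**Figure D1:**
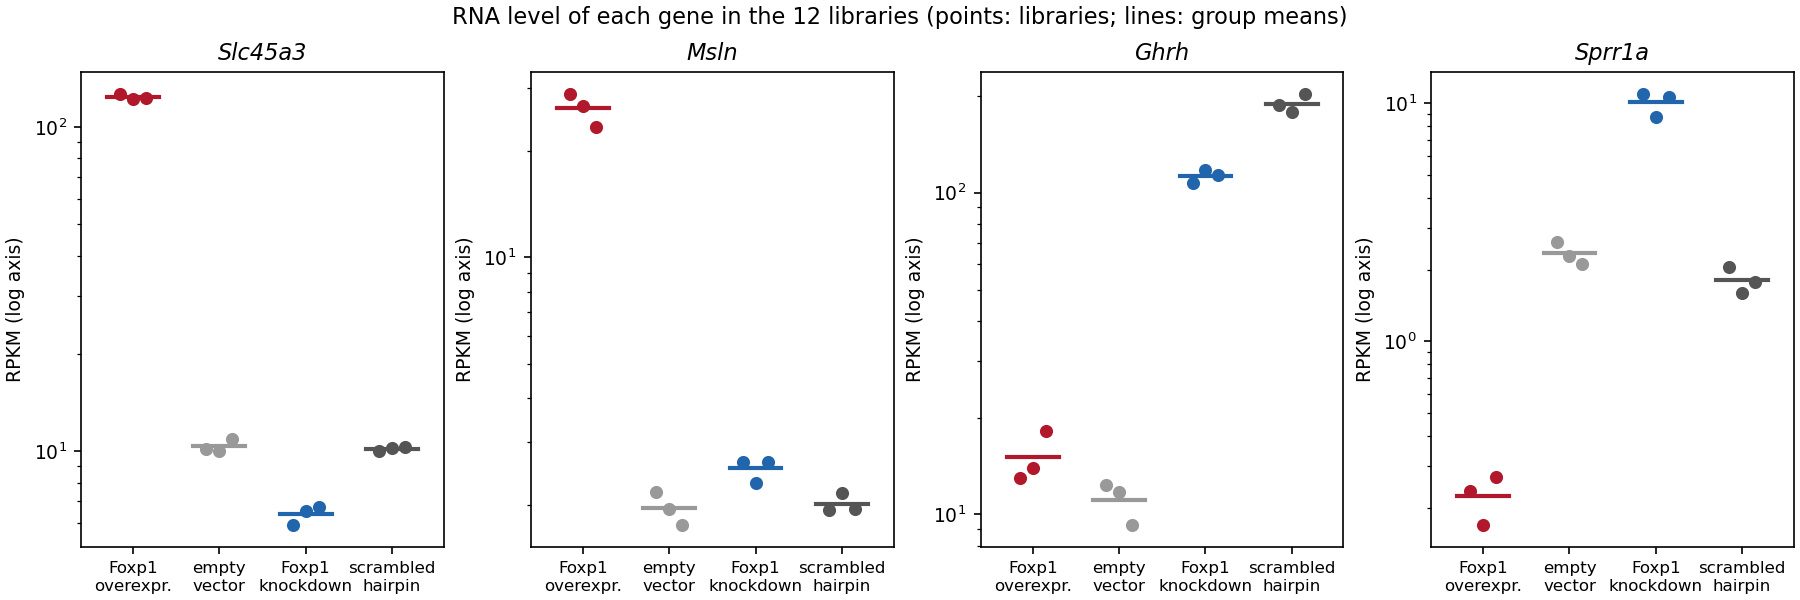
RPKM of Slc45a3, Msln, Ghrh and Sprr1a in each of the 12 libraries, on log axes, by group; points are libraries and horizontal bars are group means. Slc45a3 and Msln stood highest with Foxp1 overexpression, Ghrh in both hairpin groups, and Sprr1a lowest with overexpression and highest with knockdown.

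Slc45a3 (ENSMUSG00000026435, chr1:131962967-131982969, plus strand of GRCm38) had 126.4, 122.0 and 122.5 RPKM in overexpressing cells, against 10.1, 9.99 and 10.9 RPKM with the empty vector. It had 5.91, 6.54 and 6.72 RPKM in knockdown cells, against 9.98, 10.2 and 10.3 RPKM with the scrambled hairpin. All 3 overexpression libraries were far above every other library, all 3 knockdown libraries were the lowest of the 12, and the control groups overlapped each other. The group means were 123.7 ± 2.42 RPKM in overexpression and 10.3 ± 0.499 RPKM in the empty vector group (SD, n = 3 each), a ratio of 11.95 that ranged between 11.2 and 12.7 over single pairs of libraries. In knockdown and scrambled cells the means were 6.39 ± 0.423 and 10.2 ± 0.170 RPKM, a ratio of 0.628. The scrambled and empty vector means had a ratio of 0.983. By level, Slc45a3 was the 343rd highest of 11245 tested genes in overexpressing cells and the 4168th in empty vector cells. Its overexpression ratio was the 15th highest of the tested genes (difference of 3.46 on the log2(RPKM + 1) scale), and its knockdown ratio the 310th lowest (difference of -0.60).

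Behind these values were 15971 to 16621 reads per library in overexpression and 1368 to 1371 with the empty vector. Part of the gene is shared with Gm29103, a processed transcript on the same strand that spans Slc45a3 and its downstream neighbour Elk4. It holds 481 of the 3563 exon bases of Slc45a3 (13.5%) and was not analysed here; how reads on shared exons were assigned is not given in the sources used here. Elk4, an ETS transcription factor whose exons it also touches, did not share the high level in overexpression: it had 3.36 ± 0.258 RPKM with overexpression and 3.89 ± 0.0854 RPKM with the empty vector (log2 difference -0.17, limma adjusted p = 0.0154). That call ended without overexpression replicate 3 (adjusted p = 0.0517) or empty vector replicate 1 (0.0535).

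RefSeq lists start sites of Slc45a3 at positions 7694 bases apart. The 250 bases before the upstream start (GRCm38.p6, chr1:131962665-131962914, plus strand) are shown because they form the GC-rich window of this gene, with 66.8% G or C beside a median of 52.4% over all 32851 RefSeq promoter windows; the downstream window has 49.2%. Capitals mark GC boxes (GGGCGG on either strand), which lie 186 and 12 bases before the start. A GC box occurs in 32.7% of all windows.
Slc45a3: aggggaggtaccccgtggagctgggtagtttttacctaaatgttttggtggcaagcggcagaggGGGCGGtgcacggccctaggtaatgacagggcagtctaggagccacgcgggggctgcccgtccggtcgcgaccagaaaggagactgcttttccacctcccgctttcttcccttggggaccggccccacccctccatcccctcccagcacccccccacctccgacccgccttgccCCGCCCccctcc

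Among the other SLC45 transporters, Slc45a1 and Slc45a2 had at most 2 reads in any library. Slc45a4 was the family's 1 tested member beside Slc45a3. It fell with overexpression, to 3.99 ± 0.376 RPKM against 4.81 ± 0.186 RPKM with the empty vector (SD, n = 3 each; log2 difference -0.22, adjusted p = 0.0221), in a comparison where 51.4% of all tested genes were called. It also fell with knockdown, to 4.04 ± 0.167 RPKM against 5.00 ± 0.599 RPKM with the scrambled hairpin (log2 difference -0.25, adjusted p = 0.0126), where 49.7% of tested genes were called. The first call ended without overexpression replicate 3 (0.0776), without empty vector replicate 2 (0.0769) or with no filter on low values (0.0504), and the second without scrambled replicate 2 (0.0598).

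The prostate label was set against 15 markers of prostate epithelium, of which 13 were listed and 4 were high enough to test. The secretory and lineage genes were at the floor: Hoxb13, Tmprss2 and Msmb had at most 1 read in any of the 12 libraries, and Acpp, prostatic acid phosphatase, at most 2. The 4 tested markers were the metalloreductases Steap1 and Steap2 and the keratins Krt8 and Krt18. With overexpression 3 rose and 0 fell (of all tested genes, 51.4% were called with overexpression and 49.7% with knockdown), with a median log2 difference of 0.77 beside 0.04 over all tested genes. Steap2 rose to 6.25 ± 0.109 RPKM against 2.55 ± 0.0910 RPKM with the empty vector (log2 difference 1.03, adjusted p = 4.48e-10), and Steap1 to 6.82 ± 0.465 against 3.33 ± 0.245 RPKM (0.85, adjusted p = 7.16e-08). With knockdown 0 rose and 2 fell, both keratins, while Steap2 stood at 1.86 ± 0.0502 RPKM in knockdown and 1.91 ± 0.0694 RPKM in scrambled cells. Steap1 was higher in both hairpin groups than in overexpression, at 8.06 ± 0.490 RPKM in knockdown and 7.45 ± 0.0228 RPKM in scrambled cells. The summed level of the listed markers was 15.5 to 15.8 RPKM in overexpression, 7.23 to 7.90 with the empty vector, 14.5 to 15.3 in knockdown and 17.4 to 18.3 with the scrambled hairpin. Among markers too low to test, Folh1, prostate-specific membrane antigen, had 0.688 ± 0.0586 RPKM in overexpression and 0.391 ± 0.0231 RPKM with the empty vector, and Psca, prostate stem cell antigen, 0.284 ± 0.0322 and 0.106 ± 0.0534 RPKM in the same groups (SD, n = 3 each). Much of the sum in scrambled cells came from Steap1 (7.45 RPKM), Krt18 (4.84 RPKM) and Krt8 (2.15 RPKM). The sum was highest in those cells, where Slc45a3 was near its empty vector level. The part of the listed markers in the level of Slc45a3 was not tested.

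Msln (ENSMUSG00000063011, chr17:25748613-25754378, minus strand) had 28.9, 26.7 and 23.4 RPKM in overexpressing cells, against 2.18, 1.94 and 1.75 RPKM with the empty vector. It had 2.64, 2.31 and 2.65 RPKM in knockdown cells, against 1.93, 2.16 and 1.95 RPKM with the scrambled hairpin. Overexpression was far above all other libraries, and knockdown stood slightly above both control groups, which overlapped each other. The means were 26.3 ± 2.81 RPKM in overexpression and 1.96 ± 0.214 RPKM with the empty vector (SD, n = 3 each), a ratio of 13.5 with a range of 10.7 to 16.5 over single pairs. They were 2.53 ± 0.193 RPKM in knockdown and 2.01 ± 0.127 RPKM with the scrambled hairpin, a ratio of 1.26, and the ratio of scrambled to empty vector cells was 1.03. The overexpression ratio was the 12th highest among tested genes, a difference of 3.21 on the log2(RPKM + 1) scale. Reads per library numbered 2635 to 3272 in overexpression and 189 to 253 with the empty vector. Unlike Slc45a3, Msln was higher than its control in both the overexpression and the knockdown comparison, by very different amounts.

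The partner and the relatives of mesothelin were near the floor. Muc16, the mucin that mesothelin binds, had at most 1 read in any library. Of 5 listed genes of the mesothelin family and its ligand, 0 reached the level for testing, and the highest, Mslnl, stayed at or below 0.152 RPKM. Mesothelial markers were checked with a list of 15 genes, of which 13 were listed and 4 were tested. The transcription factor Wt1 had at most 4 reads in a library, the uroplakin Upk3b at most 14 and the calcium-binding protein Calb2 at most 1. Some markers too low to test were, like Msln, highest in overexpression, and others were not. The keratin Krt7 had 0.387 RPKM in overexpression, 0.0468 with the empty vector, 0.147 in knockdown and 0.0782 with the scrambled hairpin; Nkain4 had 0.409, 0.254, 0.0287 and 0.0142 RPKM, and Upk3b 0.0872, 0.0409, 0.0126 and 0.005 RPKM, in the same order of groups. By contrast, Lrrn4 and Wt1 were highest with the empty vector, at 0.0748 and 0.0129 RPKM against 0.0195 and 0.0102 RPKM in overexpression. Bnc1 was highest in knockdown, at 0.0852 RPKM against 0.0174 RPKM in overexpression. With overexpression 2 of the 4 tested markers rose and 1 fell, and with knockdown 2 rose and 2 fell (beside 51.4% and 49.7% of all tested genes called). Pdpn, podoplanin, which fell with overexpression and rose with knockdown, lost its call without overexpression replicate 1 or 2 or empty vector replicate 1 or 3 (adjusted p = 0.0855 to 0.144), and without knockdown replicate 1 or 3 or scrambled replicate 1 or 2 (0.0591 to 0.138). The keratin Krt19 rose in both, to 1.02 RPKM in overexpression against 0.248 RPKM with the empty vector (log2 difference 0.69, adjusted p = 2.45e-05), and to 1.16 RPKM in knockdown against 0.750 RPKM with the scrambled hairpin (0.31, adjusted p = 0.00993). The summed level of the listed mesothelial markers was 4.49 to 5.35 RPKM in overexpression, 2.87 to 3.62 with the empty vector, 6.18 to 6.73 in knockdown and 8.12 to 9.38 with the scrambled hairpin. In the hairpin groups much of that sum came from Krt18, at 2.64 RPKM in knockdown and 4.84 RPKM with the scrambled hairpin. The sum was highest with the scrambled hairpin and Msln with overexpression; the part of these markers in the level of Msln was not tested.

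**Figure D2:**
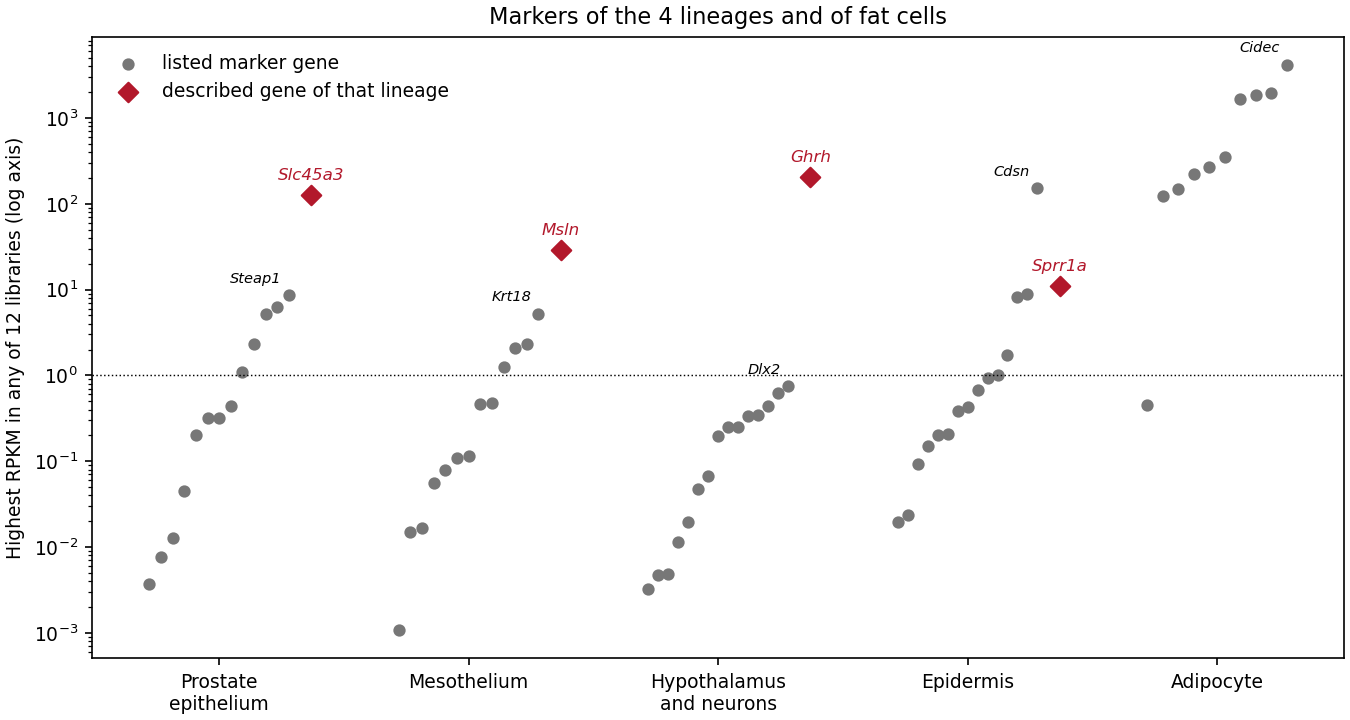
Highest RPKM in any of the 12 libraries, on a log axis, of the listed markers of prostate, mesothelium, hypothalamus and neurons, epidermis and fat cells (grey points) and of the described gene of each lineage (red diamonds); the dotted line is 1 RPKM. Slc45a3, Msln and Ghrh lie above every marker of their lineage, Sprr1a lies below Cdsn, and all neuronal markers lie below the line.

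Ghrh (ENSMUSG00000027643, chr2:157329497-157347506, minus strand) had 13.02, 13.97 and 18.1 RPKM in overexpressing cells, against 12.35, 11.7 and 9.26 RPKM with the empty vector. It had 107.2, 117.7 and 113.4 RPKM in knockdown cells, against 187, 178 and 203 RPKM with the scrambled hairpin. Every hairpin library, knockdown or scrambled, was far above every vector library, overexpression stood above the empty vector without overlap, and knockdown below the scrambled hairpin without overlap. The means were 15.05 ± 2.72 RPKM in overexpression and 11.1 ± 1.63 RPKM with the empty vector (SD, n = 3 each), a ratio of 1.35. They were 112.7 ± 5.29 RPKM in knockdown and 189.3 ± 12.8 RPKM with the scrambled hairpin, a ratio of 0.596. The scrambled group exceeded the empty vector group by a ratio of 17.0, with a range of 14.4 to 21.9 over single pairs of libraries, the 9th highest ratio among tested genes in that comparison (difference of 3.98 on the log2 scale). Ghrh was the 207th highest of 11245 genes by level in scrambled cells and the 3956th in empty vector cells. What apart from the hairpin construct separates these controls is not given in the sources used here, so the construct and other differences between the arms cannot be told apart. The overexpression library with the highest Ghrh value was replicate 3, which also had the highest mitochondrial share; without it the ratio to the empty vector was 1.22.

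Both RefSeq start sites of Ghrh are shown because they lie 9229 bases apart and have promoters of different make. Each line gives 250 bases before a start (GRCm38.p6, minus strand; chr2:157346656-157346905 for the upstream site and chr2:157337427-157337676 for the downstream site). Capitals mark the core of the cAMP response element (TGACG on either strand, in 17.8% of all windows) and the TATA box (TATAAA on either strand, in 12.4%). The upstream window holds TGACG 18 bases before the start and no TATAAA. The downstream window holds TGACG at 225 and 61 bases and TATAAA at 31 bases before the start. The values are summed over the gene and do not tell the start sites apart.
Ghrh upstream: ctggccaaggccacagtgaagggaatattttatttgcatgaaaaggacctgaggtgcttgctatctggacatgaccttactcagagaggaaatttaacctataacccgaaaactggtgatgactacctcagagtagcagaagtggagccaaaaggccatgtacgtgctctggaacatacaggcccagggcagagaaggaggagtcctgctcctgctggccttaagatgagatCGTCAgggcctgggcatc
Ghrh downstream: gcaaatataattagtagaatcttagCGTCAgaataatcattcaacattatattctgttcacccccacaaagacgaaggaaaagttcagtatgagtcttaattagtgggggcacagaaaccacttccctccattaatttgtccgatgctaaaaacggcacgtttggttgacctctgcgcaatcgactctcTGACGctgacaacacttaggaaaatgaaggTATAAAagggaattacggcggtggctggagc

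The receptor for the peptide was close to undetected: Ghrhr had at most 1 read in any library and 5 in all 12. Of 13 receptors for this peptide family and for somatostatin, the opposing hormone, 12 were listed and 3 were tested. Adcyap1r1, the receptor of the related peptide PACAP, fell to 0.977 RPKM in overexpression against 3.96 RPKM with the empty vector (log2 difference -1.33, adjusted p = 7.11e-10). Gipr, the receptor of the gut hormone GIP, fell to 0.522 RPKM in knockdown against 1.196 RPKM with the scrambled hairpin (-0.53, adjusted p = 1.55e-05). The secretin receptor Sctr fell to 0.864 RPKM in overexpression against 1.32 RPKM with the empty vector (-0.32, adjusted p = 0.00057), and rose to 0.520 RPKM in knockdown against 0.0958 RPKM with the scrambled hairpin (0.47, adjusted p = 3.85e-05). Between the controls, Gipr was higher with the scrambled hairpin, at 1.196 RPKM against 0.0180 RPKM with the empty vector (log2 difference 1.11, limma adjusted p = 4.87e-09). Sctr (-1.08, adjusted p = 6.5e-09) and Adcyap1r1 (-0.33, adjusted p = 7.56e-05) were lower there, where 71.8% of all tested genes were called. Of 6 related ligands 2 were listed, Gip and Sct, and neither had more than 2 reads in a library.

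Enzymes that cut and trim peptide hormones were present in part. Of 6 such genes 4 were listed and 3 were tested, and all 3 passed the test in both comparisons (beside 51.4% and 49.7% of all tested genes called). Furin, a protease of the secretory pathway, rose to 14.6 ± 0.384 RPKM in overexpression against 11.98 ± 0.153 RPKM with the empty vector (log2 difference 0.27, adjusted p = 3.06e-05). It fell to 14.1 ± 0.346 RPKM in knockdown against 18.3 ± 0.425 RPKM with the scrambled hairpin (-0.35, adjusted p = 7.22e-06). Carboxypeptidase E (Cpe), which trims peptide ends, went the other way: it fell to 29.2 ± 1.42 RPKM in overexpression against 47.3 ± 2.36 RPKM with the empty vector (-0.68, adjusted p = 3.29e-07) and rose to 42.8 ± 2.68 RPKM in knockdown against 36.9 ± 0.632 RPKM with the scrambled hairpin (0.21, adjusted p = 0.00582). Pam, the enzyme that amidates peptides, rose with overexpression (0.24, adjusted p = 0.000519) and fell with knockdown (-0.19, adjusted p = 0.00345). The neuroendocrine convertase Pcsk2 had at most 1 read in a library.

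Downstream of the pituitary, 8 of 10 genes of growth hormone action were tested. With overexpression 1 rose and 3 fell (median log2 difference -0.01 beside 0.04 over all tested genes). With knockdown 3 rose and 4 fell (median -0.08 beside -0.04). Of all tested genes, 51.4% were called with overexpression and 49.7% with knockdown. With overexpression the rise of the kinase Jak2 and the fall of Igfbp3, a binding protein of insulin-like growth factors, each ended without certain single libraries (adjusted p = 0.0679 to 0.123 without overexpression replicate 1 or 2 or empty vector replicate 3 for Jak2, and 0.0838 to 0.144 without overexpression replicate 2 or 3 or empty vector replicate 1 or 3 for Igfbp3). The growth hormone receptor Ghr fell to 25.9 ± 0.569 RPKM in overexpression against 36.002 ± 0.986 RPKM with the empty vector (-0.46, adjusted p = 4.55e-07) and rose to 19.6 ± 0.637 RPKM in knockdown against 16.4 ± 0.379 RPKM with the scrambled hairpin (0.25, adjusted p = 0.000139). Between the controls, where Ghrh was 17.0 times higher, Ghr was lower with the scrambled hairpin (-1.09, adjusted p = 1.21e-10), in a comparison that called 71.8% of all tested genes. Of the 8 tested genes, 4 rose and 4 fell there. The risers were Jak2 and the transcription factors Stat5a and Stat5b, which carry the receptor's signal, and the feedback inhibitor Socs2, at 7.92 RPKM with the scrambled hairpin against 3.41 RPKM with the empty vector (log2 difference 1.02). The genes that fell with Ghr were the growth factor Igf1 (-0.39) and its binding partners Igfals (-0.75) and Igfbp3 (-1.46).

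Neuronal markers were low in all groups. Of 22 genes of hypothalamic neurons and neurons in general, 15 were listed and 0 reached the level for testing. The highest was the homeobox gene Dlx2, at no more than 0.745 RPKM, and 7 of the 15, among them Rbfox3, Stmn2 and Syt1, had 3 reads or fewer in every library. Their summed level was 1.97 to 2.04 RPKM in overexpression, 1.85 to 2.24 with the empty vector, 1.89 to 2.29 in knockdown and 1.498 to 1.745 with the scrambled hairpin. The sum was lowest in scrambled cells, which had the most Ghrh RNA, and its ranges in the other groups overlapped. The part of these markers in the level of Ghrh was not tested.

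Sprr1a (ENSMUSG00000050359, chr3:92483952-92485895, minus strand) had 0.235, 0.169 and 0.270 RPKM in overexpressing cells, against 2.62, 2.29 and 2.11 RPKM with the empty vector. It had 10.95, 8.74 and 10.6 RPKM in knockdown cells, against 2.05, 1.59 and 1.77 RPKM with the scrambled hairpin. The overexpression libraries were the lowest of the 12, the knockdown libraries the highest, and the control groups lay between them, close together without overlapping. The means were 0.225 ± 0.0513 RPKM in overexpression and 2.34 ± 0.256 RPKM with the empty vector (SD, n = 3 each), a ratio of 0.0960. They were 10.1 ± 1.19 RPKM in knockdown and 1.80 ± 0.231 RPKM with the scrambled hairpin, a ratio of 5.60 with a range of 4.27 to 6.89 over single pairs. The scrambled to empty vector ratio was 0.770. On the log2(RPKM + 1) scale its overexpression difference was -1.45, 6th lowest by ratio among tested genes, and its knockdown difference was 1.98, 4th highest. The overexpression level rests on 7, 5 and 8 reads, against 60 to 80 reads per library with the empty vector, so the size of that ratio is the least precise of those given for the 4 genes.

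The promoter window of Sprr1a (GRCm38.p6, chr3:92485882-92486131, minus strand) is shown because it holds motifs that few windows hold. Capitals mark AP-1 sites (TGANTCA on either strand) at 146 and 116 bases and a TATA box (TATAAA) at 43 bases before the start. An AP-1 site occurs in 6.75% and a TATA box in 12.4% of all windows.
Sprr1a: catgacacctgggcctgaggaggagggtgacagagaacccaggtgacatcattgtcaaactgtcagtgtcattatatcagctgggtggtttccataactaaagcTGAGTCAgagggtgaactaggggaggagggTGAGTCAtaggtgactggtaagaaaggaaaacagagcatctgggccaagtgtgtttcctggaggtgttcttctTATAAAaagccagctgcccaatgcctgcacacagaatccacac
Forkhead motifs were looked for as well, since Foxp1 is a forkhead factor. Neither TGTTTAC nor the TGTTTA within it, on either strand, is in the 5 windows that RefSeq gives for Slc45a3, Ghrh and Sprr1a; they occur in 3.17% and 12.03% of all windows. That says only that these letters are not in these 250-base windows.

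The other small proline-rich genes stayed at the floor, since all 6 that were listed of 15 had 3 reads or fewer in each of the 12 libraries. Of 20 epidermal markers 15 were listed and 4 were tested. The basal keratin Krt5 had at most 2 reads in a library, and the envelope precursor involucrin (Ivl) at most 31. With overexpression 2 of 4 rose and 2 fell, and with knockdown 0 rose and 3 fell (beside 51.4% and 49.7% of all tested genes called). The transcription factor Klf4 rose to 8.79 RPKM in overexpression against 5.35 RPKM with the empty vector (log2 difference 0.63, adjusted p = 4.59e-07), and fell to 5.99 RPKM in knockdown against 6.97 RPKM with the scrambled hairpin (-0.19, adjusted p = 0.00751). The basal keratin Krt14 had the same signs, at 0.49 (adjusted p = 0.000156) and -0.34 (adjusted p = 0.00258). The tested markers that fell with overexpression were Cdsn and Sbsn, and Cdsn also fell with knockdown. Markers too low to test went both ways. Krt10 had 0.664 RPKM in overexpression, 0.876 with the empty vector, 0.620 in knockdown and 0.451 with the scrambled hairpin. Krtdap had 0.560, 0.0526, 0.183 and 0.232 RPKM in the same order of groups. The summed epidermal level was 94.1 to 108.1 RPKM in overexpression, 157 to 166 with the empty vector, 104 to 112 in knockdown and 150 to 155 with the scrambled hairpin, most of it from the desmosomal gene Cdsn. The part of these markers in the level of Sprr1a was not tested.

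Sprr1a is also part of the response of neurons to axon injury, and 13 of 15 genes of that program were tested. With overexpression 5 rose and 3 fell (median log2 difference 0.12 beside 0.04 over all tested genes), and with knockdown 4 rose and 3 fell (median -0.03 beside -0.04). These 8 and 7 calls among 13 genes are close to the 51.4% and 49.7% called over all tested genes. Atf3, a stress-induced transcription factor, was the only tested gene of the program called in the directions of Sprr1a in both comparisons. It fell to 6.31 ± 0.624 RPKM in overexpression against 8.82 ± 0.579 RPKM with the empty vector (-0.43, adjusted p = 0.000302) and rose to 11.0 ± 0.292 RPKM in knockdown against 8.26 ± 0.796 RPKM with the scrambled hairpin (0.38, adjusted p = 0.00096). Basp1, a growth cone protein, rose with knockdown, to 28.6 RPKM against 19.2 RPKM with the scrambled hairpin (0.55, adjusted p = 0.00106), but did not pass with overexpression (-0.22, adjusted p = 0.096), where it passed without empty vector replicate 2 (0.0152). Lifr, the receptor of leukaemia inhibitory factor, and the AP-1 subunit Junb both rose with overexpression (log2 differences 0.55 and 0.55, adjusted p = 1.64e-06 and 0.000115). Cebpd was called opposite to Sprr1a in both comparisons, up with overexpression (0.48) and down with knockdown (-0.37). Klf6 was called up in both (0.21 and 0.27), and Stat3 down in both (-0.15 and -0.30).

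**Figure D3:**
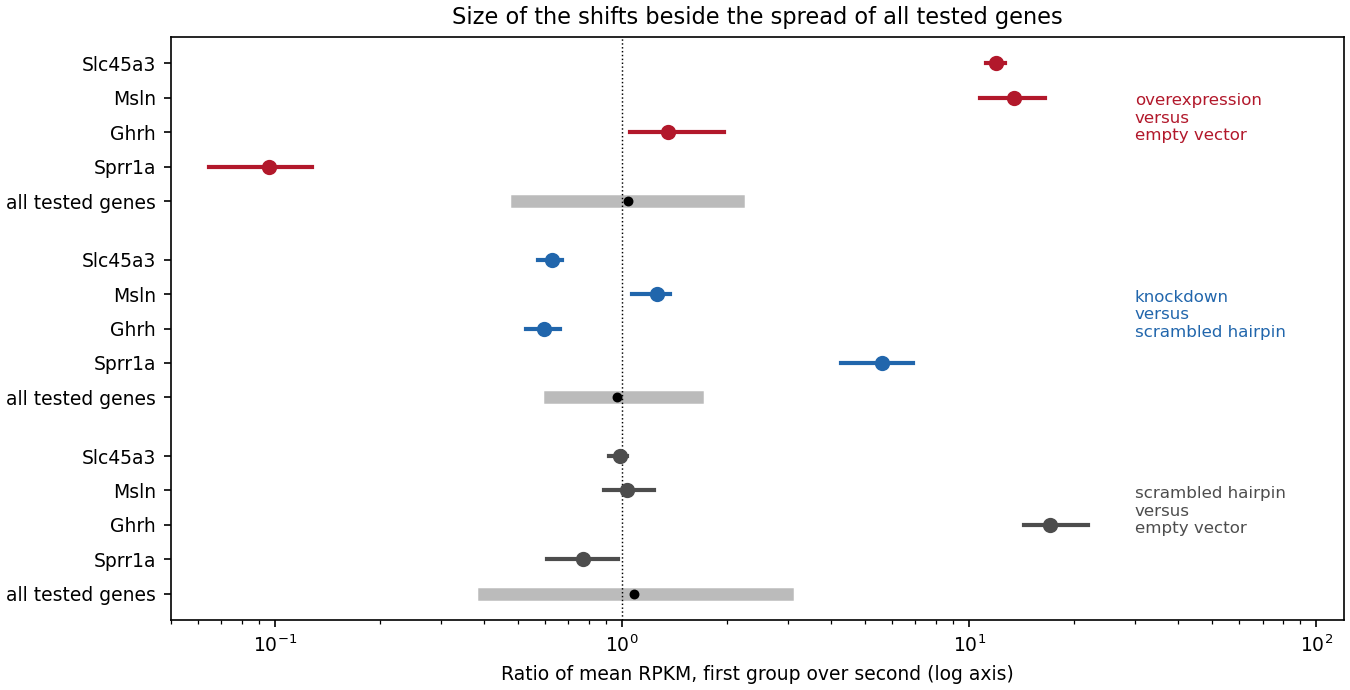
Ratio of mean RPKM for each of the 4 genes in 3 comparisons, first named group over the second, on a log axis; coloured bars span the lowest to the highest ratio over single pairs of libraries, and grey bars the middle 95% of all tested genes with their median as a dot. Slc45a3 and Msln are far above 1 with overexpression, Ghrh is far above 1 between the controls, and Sprr1a is below 1 with overexpression and above 1 with knockdown.

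Set side by side, the 4 genes did not overlap between overexpression and empty vector (4 of 4, where 57.5% of all tested genes did not), nor between knockdown and scrambled hairpin (4 of 4, against 59.6%), and 2 of 4 did not overlap between scrambled hairpin and empty vector, against 78.9%. Since the genes were picked for such differences, nothing is read from these counts. Opposite directions in overexpression and knockdown were seen in Slc45a3, Ghrh and Sprr1a, and the same direction in Msln. In Ghrh both differences were small beside that between its controls. Of all tested genes, 362 had a ratio of 2 or more with overexpression and 115 with knockdown, and 687 between the controls. The middle 95% of ratios spanned 0.498 to 2.15, 0.617 to 1.64 and 0.399 to 2.98 in these 3 comparisons. The call counts over all genes were 3490 up and 2285 down with overexpression, or 2437 and 2580 with libraries rescaled to TPM, a split that depended on the scaling. Knockdown had 2100 up and 3487 down.

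In the comparison where each of the 4 genes differed most, its chromosomal neighbours differed less. Since the 4 were picked for large differences, nearly any other gene would do so, and nothing is read from it. In other comparisons some neighbours differed more than the gene beside them. Cdk18 (ratio 0.480) did so beside Slc45a3 (0.628) with knockdown, and Rbl1 (0.485) beside Ghrh (1.35) with overexpression. The 3 nearest tested genes on either side gave 24 neighbours. With overexpression 7 rose and 4 fell (45.8%, beside 51.4% of all tested genes), and their ratios spanned 0.485 to 1.53. With knockdown 4 rose and 5 fell (37.5%, beside 49.7%), with ratios of 0.480 to 1.90. Between scrambled hairpin and empty vector 14 rose and 2 fell (66.7%, beside 71.8%), with ratios of 0.543 to 3.73. The share called did not exceed that of all tested genes in any of the 3 comparisons. Of the calls, 6 of 11, 1 of 9 and 3 of 16 ended under at least 1 alternative setting or without 1 library.

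**Figure D4:**
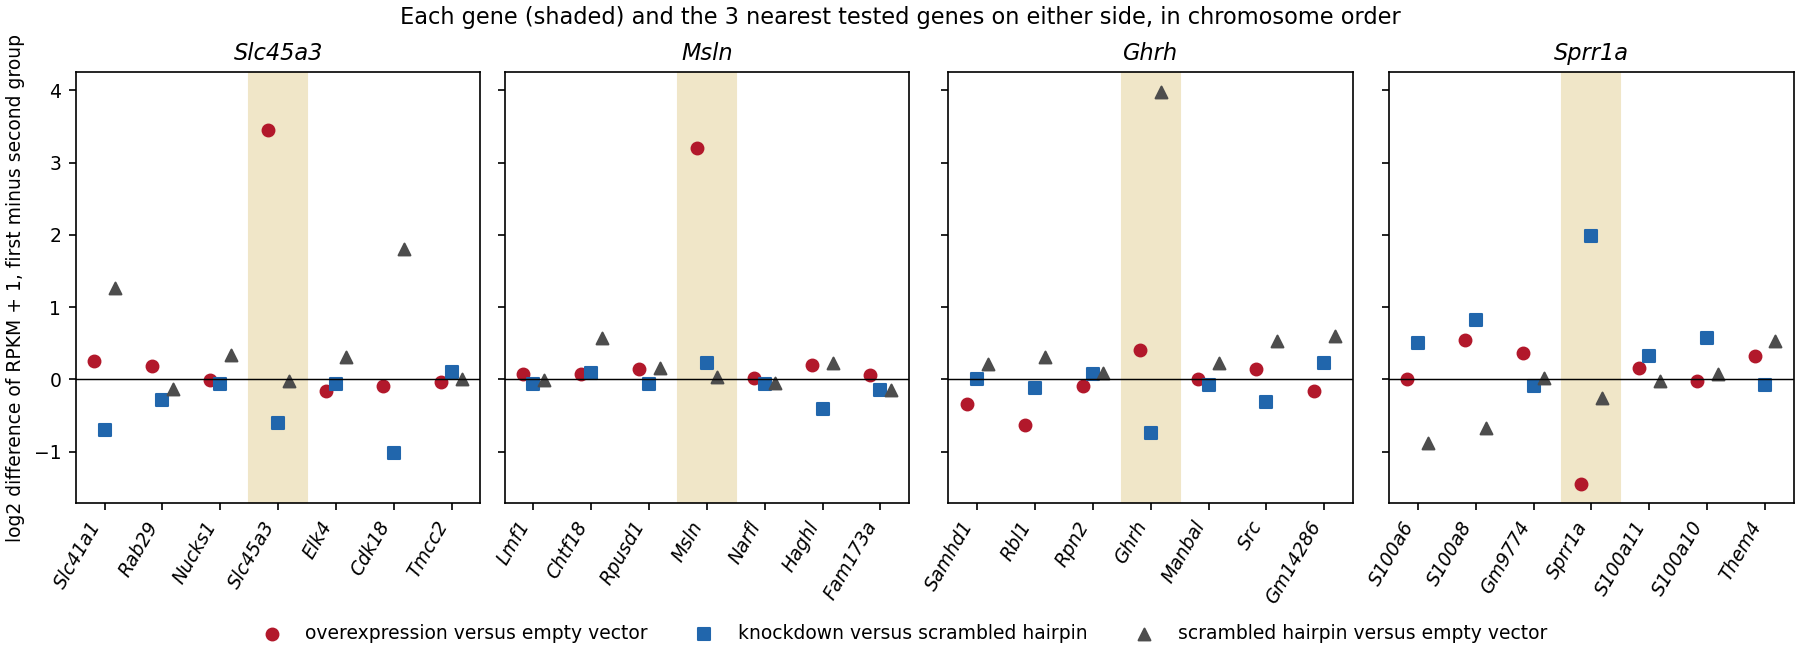
Difference on the log2(RPKM + 1) scale, first named group minus the second, of each of the 4 genes (shaded) and its 3 nearest tested genes on either side, in chromosome order, with 1 symbol per comparison. In the comparison where a shaded gene differs most, each of its neighbours is closer to 0. The shaded genes were picked for large differences, so nearly any other gene would be.

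Beside Slc45a3, the magnesium transporter Slc41a1 rose with overexpression, to 4.99 ± 0.494 RPKM against 4.01 ± 0.128 RPKM with the empty vector (log2 difference 0.26, adjusted p = 0.0058), and fell with knockdown (-0.70, adjusted p = 5.01e-06). The kinase Cdk18 did not pass with overexpression (-0.09, adjusted p = 0.156), and fell to 19.5 ± 1.12 RPKM in knockdown against 40.7 ± 1.37 RPKM with the scrambled hairpin (-1.02, adjusted p = 4.99e-08). Next to Ghrh all 6 neighbours rose between scrambled hairpin and empty vector (beside 71.8% of all tested genes called), by ratios of only 1.06 to 1.74. The call of the smallest, the oligosaccharyltransferase subunit Rpn2, ended without any single library of the 6 compared (adjusted p = 0.0508 to 0.0974). With overexpression Rbl1, a relative of the retinoblastoma protein, fell to 1.08 ± 0.0740 RPKM against 2.22 ± 0.0601 RPKM with the empty vector (log2 difference -0.63, adjusted p = 2.26e-07). By Msln, 1 of 6 neighbours passed with overexpression and 1 with knockdown (beside 51.4% and 49.7% of all tested genes called). The first, the pseudouridine synthase gene Rpusd1 (log2 difference 0.15, adjusted p = 0.0189), lost its call without overexpression replicate 1 (0.0592) or empty vector replicate 2 (0.0822). The second, Haghl, fell to 6.06 ± 0.283 RPKM in knockdown against 8.37 ± 0.363 RPKM with the scrambled hairpin (-0.41, adjusted p = 0.00105).

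Sprr genes and S100 genes lie together in the epidermal differentiation complex, and the nearest tested genes to Sprr1a included S100 genes more than 1 megabase away. S100a10, the partner of annexin A2, rose with knockdown, to 337.8 ± 28.1 RPKM against 227.3 ± 12.8 RPKM with the scrambled hairpin (log2 difference 0.57, adjusted p = 1.26e-05). S100a8, a calcium-binding protein of inflammation, rose to 10.2 ± 0.466 RPKM in knockdown against 5.40 ± 0.600 RPKM with the scrambled hairpin (0.82, adjusted p = 4.31e-05). It also rose with overexpression, to 13.97 ± 2.52 RPKM against 9.15 ± 0.609 RPKM with the empty vector (0.55, adjusted p = 0.000672), where Sprr1a was 10.4 times lower.

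The genes whose levels followed each of the 4 most closely were named by Pearson correlation of log2(RPKM + 1) over the 12 libraries. The libraries share 4 groups, so r mostly restates the group means, and it is a description. For Slc45a3 they were Lynx1 (r = 0.9965), Arrdc2 (0.9951), Lurap1 (0.9942), Lbp (0.9942) and Apbb2 (0.9935). Lbp, the lipopolysaccharide-binding protein, averaged 18.6 RPKM in overexpression, 3.88 with the empty vector, 2.57 in knockdown and 4.41 with the scrambled hairpin. For Msln they were Tnfrsf22 (0.9957), Lpo (0.9942), Ptprv (0.9936), Cyp4a10 (0.9935) and 4930461G14Rik (0.9933). Cyp4a10, a fatty acid hydroxylase, averaged 8.97 RPKM in overexpression against 0.0551 RPKM with the empty vector, and Lpo, lactoperoxidase, 8.55 against 0.1997 RPKM. Slc45a3 and Msln correlated with each other at 0.9714.

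For Ghrh the closest genes were Bnip3 (r = 0.9966), 1810055G02Rik (0.9956), Cdt1 (0.9944), Dolpp1 (0.9942) and Bco1 (0.9932). Bnip3, a mitophagy receptor known as a hypoxia target, averaged 191.6 RPKM in overexpression, 170.3 with the empty vector, 454.1 in knockdown and 516.0 with the scrambled hairpin. Bco1, which cleaves carotene, averaged 4.44, 4.47, 17.5 and 27.2 RPKM in the same order of groups. As many as 607 tested genes had r above 0.95 with Ghrh, beside 142 with Slc45a3, 92 with Msln and 29 with Sprr1a. For Sprr1a the closest were Dhcr7 (0.9898), Vcl (0.9836), 2810004N23Rik (0.9830), Dpysl3 (0.9817) and Nav3 (0.9797). Dhcr7, the last enzyme of cholesterol synthesis, averaged 18.9 RPKM in overexpression, 27.4 with the empty vector, 41.4 in knockdown and 25.6 with the scrambled hairpin. Fewer tested genes thus followed Sprr1a than Ghrh above that r. The low read numbers of Sprr1a can also lower r, so these counts do not rank how rare the patterns are.

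Levels of fat cell genes differed between the groups. Of 10 adipocyte genes 9 were tested: with overexpression 0 rose and 9 fell, and with knockdown 6 rose and 3 fell (beside 51.4% and 49.7% of all tested genes called). Of the knockdown calls, those of Fabp4 (adjusted p = 0.0503 without knockdown replicate 3 and 0.0659 without scrambled replicate 2), Lipe (0.0541 without knockdown replicate 3 and 0.0539 without scrambled replicate 3) and Pparg (0.0592 to 0.125 without knockdown replicate 1 or 3 or scrambled replicate 1 or 2) depended on single libraries. The summed level of the 10 genes was 2931 to 3212 RPKM in overexpression, 8129 to 8259 with the empty vector, 8475 to 9168 in knockdown and 5965 to 6133 with the scrambled hairpin. Genes of preadipocytes and fibroblasts summed to 600.7 to 639.4 RPKM in overexpression, 490.5 to 522.7 with the empty vector, 516.4 to 550.5 in knockdown and 560.1 to 612.3 with the scrambled hairpin. Whether the levels of the 4 genes depend on fat cell state was not tested.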

How the data were processed

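RNA was measured per gene in 12 libraries. Per the labels' protocols these are total RNA libraries of differentiated 3T3-L1 cells. The authors deposited RPKM per gene and library, divided by 1000, and the values were multiplied by 1000 here. The submitters' processing notes name HISAT2 2.1.0, featureCounts, Subread 1.5.3 and mm10. Their roles, the strand setting and the treatment of reads matching several places or genes are not given in the sources used here. Symbols, positions and exon lengths came from GENCODE M21 (GRCm38). Between 98.83% and 98.93% of values above 0 were whole reads within 0.05 of a read, which gave depth and reads per gene; intervals were not computed, and read numbers cover counting error only.

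Genes reaching 1 RPKM in 3 or more libraries entered limma 3.58.1 (R 4.3.3) as log2(RPKM + 1) (eBayes with trend, 1 model of 4 groups, Benjamini-Hochberg adjusted p under 0.05 over 11245 genes). This scale shrinks the differences of genes near or below 1 RPKM, for which the ratio of group means is the better guide; ranks of differences go by that ratio. The comparisons share control libraries with the scrambled against empty vector comparison. The script was tested on simulated data. The 4 genes and all 14 gene lists were chosen with earlier results of these data known. Named genes are the 4, Foxp1, up to 4 called genes per list and comparison, the highest or defining markers, 3 tested neighbours on either side and the 5 most correlated genes; not all of them are given in the text. Promoter sequences are RefSeq's (GRCm38.p6). Figures and tables used Python 3.11.15, pandas 2.3.3, numpy 2.4.6 and matplotlib 3.10.9.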

Additional observations from a re-analysis of the deposited data

How the results depend on the processing

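Counts of called genes stayed within 1.5 times under every alternative run (pseudocounts, filters, TPM and median-ratio scaling, only the libraries compared, voom on recovered reads, a replicate block and leaving out each library). They ran between 4965 and 7200 for overexpression, 4758 and 6106 for knockdown and 7542 and 10486 for scrambled hairpin against empty vector; leaving out 1 library gave 4965 to 6221, 4758 to 5350 and 7542 to 7632. Same-numbered replicates did not deviate together (correlations of -0.0727 to 0.118), so the numbers do not pair the samples; with a replicate block the counts were 5888, 5709 and 8164. Of the differences of the 4 genes, 96 moved by less than the spread between replicates and 12 moved by more, all with a pseudocount of 0.1, TPM or median-ratio scaling. Slc45a3 between the controls, where the groups overlapped, was 0.05 with TPM and -0.02 as reported. The difference of Sprr1a with overexpression was -2.92 with a pseudocount of 0.1, which changes the scale. Of the values of list genes and neighbours, 3018 stayed as they were, either called or not called. Another 93 lost a call, 47 gained one and 1 reversed. The reversed value was that of Rpn2 between the controls, a log2 difference of -0.0014 with median-ratio scaling. The low read number of Sprr1a in overexpression limits its ratio.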

Other observations

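Among the epidermal markers, Cdsn was expressed far above the rest. It encodes corneodesmosin, an adhesive protein of the upper epidermis, and had 83.9 ± 8.13 RPKM in overexpression and 148.4 ± 4.45 RPKM with the empty vector (SD, n = 3 each; log2 difference -0.82, limma adjusted p = 1.84e-07). It had 90.3 ± 3.88 RPKM in knockdown and 135.3 ± 2.14 RPKM with the scrambled hairpin (-0.58, adjusted p = 9.83e-06), so it fell in both comparisons. Sbsn, which encodes suprabasin, fell with overexpression, to 3.31 RPKM against 5.47 RPKM with the empty vector (-0.59, adjusted p = 3.56e-05), and did not pass with knockdown (0.16, adjusted p = 0.104). The partner keratins Krt8 and Krt18 of simple epithelia were low and fell together with knockdown. Krt8 had 1.199 RPKM in knockdown and 2.15 RPKM with the scrambled hairpin (-0.52, adjusted p = 0.000949), and Krt18 had 2.64 RPKM in knockdown and 4.84 RPKM with the scrambled hairpin (-0.69, adjusted p = 2.17e-05). Between the controls both were higher with the scrambled hairpin, by log2 differences of 1.46 and 1.93. With overexpression they parted. Krt8 rose to 0.865 RPKM against 0.145 RPKM with the empty vector (0.69, adjusted p = 8.59e-05). Krt18 did not pass, at 0.529 RPKM in overexpression and 0.533 RPKM with the empty vector (adjusted p = 0.985).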
